A study of Apis mellifera with 12 samples.

Results

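The genes *eya* and *Six4* of the honeybee were described in the mRNA of whole embryos. They are the 2 loci named eya or Six4, spelled with a single name, of 17621 loci in the files, of which 9619 carry a gene name. The pair was chosen by their FPKM (mapped fragments scaled to transcript length and to the size of the library) across sex and age in these same libraries. Their levels and differences are therefore given as a description without a test. The 12 libraries fell into 6 groups of 2 libraries each, female and male embryos of *Apis mellifera carnica* aged 10-15 h, 25-40 h and, in the oldest pools, 55-70 h from laying. No group carried a mutation, transgene or drug. Female eggs came from mated queens and male eggs from unmated queens that had been treated with CO2, so that sex, ploidy and the state of the mother cannot be told apart. Each library held pooled embryos of 3 mothers, 100 embryos at 10-15 h, 60 at 25-40 h and 30 at 55-70 h. The labels do not say that libraries of a group came from separate pools, so a p-value reflects no more than the scatter of these libraries, part of which may be technical. Because whole embryos were sequenced, more cells of a type and more RNA per cell cannot be told apart.

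Eya is a transcriptional coactivator that also has phosphatase activity and does not bind DNA by itself. It is brought to its target genes by homeodomain proteins of the sine oculis family, of which Six4 is one. In *Drosophila*, Eya acts with Sine oculis itself in the specification of the compound eye, and with Six4 in the mesoderm, where the pair takes part in the formation of muscles and of the somatic gonad. In vertebrates, Eya proteins and their homeodomain partners act in muscle precursors and in sensory organs.

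In the coordinates of the authors' files, *eya* lies on chromosome 1 from 5315622 to 5332487, a span of 16866 bases. *Six4* lies on the same chromosome from 15461589 to 15469002, a span of 7414 bases and 10.1 Mb from *eya*. The genome build was not given in the sources used here. The chromosome number was assigned because 770 of 798 gene symbols on that sequence record (96.5%) are on chromosome 1 in the RefSeq gene table for Amel_HAv3.1. No locus in the files joined either gene with another gene name. Both genes had a valid quantification status in 12 of 12 libraries. *Six4* lay inside its deposited lower and upper bounds in every library, while *eya* lay just above its upper bound in both female libraries of 25-40 h (45.3 against 44.8, and 50.9 against 50.7 FPKM).

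Transcripts of *eya*, the coactivator, were scarce at 10-15 h, most abundant in females of 25-40 h and still present in both sexes at 55-70 h. In females, the 2 libraries had 0.295 and 0.134 FPKM at 10-15 h, 45.3 and 50.9 FPKM at 25-40 h, and 9.07 and 8.34 FPKM at 55-70 h. In males, they had 0.338 and 0.345 FPKM at 10-15 h, 6.73 and 11.5 FPKM at 25-40 h, and 15.9 and 10.3 FPKM at 55-70 h. Both female libraries of 25-40 h were thus above all other libraries. The male libraries of 25-40 h overlapped with both groups of 55-70 h. Ordered by the group mean (± SD, n = 2), females of 25-40 h (48.1 ± 3.97 FPKM) were followed by males of 55-70 h (13.1 ± 3.91), males of 25-40 h (9.13 ± 3.39), females of 55-70 h (8.70 ± 0.518), males of 10-15 h (0.342 ± 0.00562) and females of 10-15 h (0.215 ± 0.114). Neighbours in this order whose libraries overlapped were the males of 55-70 h and 25-40 h, and the males of 25-40 h and the females of 55-70 h.

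*Six4*, the homeobox partner, had the same group on top but was below 0.5 FPKM again in both sexes at 55-70 h. In females, it had 0.0213 and 0.0111 FPKM at 10-15 h, 16.1 and 34.8 FPKM at 25-40 h, and 0.310 and 0.295 FPKM at 55-70 h. In males, it had 0.0389 and 0.0314 FPKM at 10-15 h, 0.753 and 1.05 FPKM at 25-40 h, and 0.377 and 0.483 FPKM at 55-70 h. Both female libraries of 25-40 h again stood above all others, and every other library was at 1.05 FPKM or less. The group means were 25.5 ± 13.3 FPKM in females of 25-40 h, 0.902 ± 0.211 in males of 25-40 h, 0.430 ± 0.0748 in males of 55-70 h, 0.303 ± 0.0110 in females of 55-70 h, 0.0352 ± 0.00529 in males of 10-15 h and 0.0162 ± 0.00724 in females of 10-15 h. No neighbouring groups overlapped in this order, but the deposited lower bound was 0 in both female libraries of 10-15 h, with upper bounds of 0.0746 and 0.0632 FPKM that lie above both male values of that age.

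**Figure D1:**
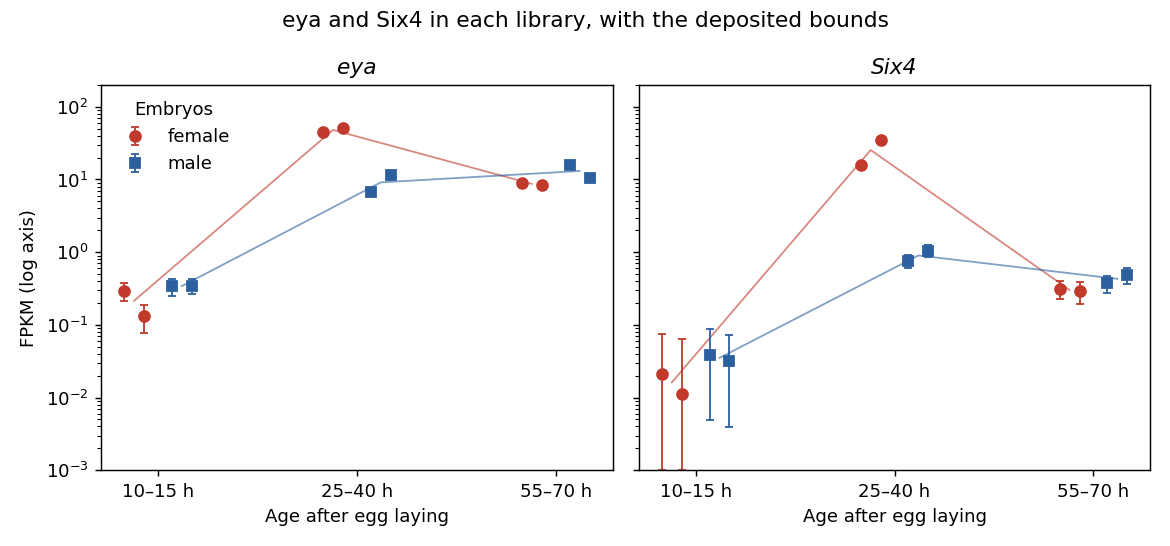
FPKM (log axis) of *eya* (left) and *Six4* (right) in each of the 12 libraries by age after egg laying, female embryos as circles and male embryos as squares, with vertical bars for the deposited lower and upper bounds (a lower bound of 0 is drawn to the foot of the axis) and lines through the means of 2 libraries. Both genes are highest in the 2 female libraries of 25-40 h, at 45.3 and 50.9 FPKM for *eya* and at 16.1 and 34.8 FPKM for *Six4*.

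The position of the genes among all loci was also highest in females of 25-40 h. At 10-15 h, 41.3% to 44.5% of the loci in the files were below *eya* and 26.0% to 33.1% were below *Six4*. In the female libraries of 25-40 h, 89.2% and 92.3% of the loci were below *eya* and 77.8% and 89.4% were below *Six4*. In the male libraries of that age the shares were 69.9% and 74.5% for *eya* and 44.0% and 46.2% for *Six4*. At 55-70 h, *eya* remained above 66.2% to 73.5% of the loci, and *Six4* above 23.3% to 26.5% of them. For *Six4* the shares at 55-70 h overlapped those at 10-15 h and were mostly lower, although its FPKM was higher at 55-70 h.

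The sex difference of both genes was large at 25-40 h. The mean of *eya* was 5.27-fold higher in females than in males, and the mean of *Six4* 28.2-fold higher. On the scale of log2(FPKM + 1), which understates the change of low values, *eya* differed by 2.32 (standard error 0.29) and *Six4* by 3.71 (standard error 0.32), females minus males. These were the 87th and the 6th highest of 10105 loci, while the median of all loci was -0.03. *Six4* reached the filter of a mean of 1 FPKM only through its female libraries of 25-40 h. The filter thus fixed part of its ranks, here and over the age steps. In limma, 7.96% of the 10105 loci were called higher in females at this age and 6.68% lower, a call being an adjusted p under 0.05. These differences are among the values the pair was chosen by and nothing is read from them beyond their size. The size rests on few libraries: without male replicate 1 the difference of *eya* was 1.97, and without female replicate 2 that of *Six4* was 3.17.

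At the other ages the sexes were closer to each other. At 10-15 h the difference was -0.15 for *eya* and -0.03 for *Six4*, at a background of 1.84% of loci called higher and 7.23% called lower in females. The mean of *eya* was 1.59-fold higher in males at this age. *Six4* was so near 0 that this scale holds its difference near 0, so -0.03 says little about its ratio. At 55-70 h the males had the higher mean for both genes, by 1.50-fold for *eya* and 1.42-fold for *Six4*, and the difference was -0.51 (standard error 0.29) and -0.13 (standard error 0.32). The median of all loci was -0.19 at that age, and 0.327% of the loci were called higher and 0.317% lower. After quantile normalization the sign turned at 10-15 h for both genes (0.02 for *eya* and 0.15 for *Six4*) and at 55-70 h for *Six4* (0.02).

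Over age, the sexes took different courses. From 10-15 h to 25-40 h, *eya* was 224-fold higher in females and 26.7-fold higher in males by the means, a difference of 5.34 and 2.87 on the log2 scale, the 119th and the 658th highest of all loci. For *Six4* the female difference was 4.61 and the male one 0.87, the 248th and the 3610th highest. The male mean of *Six4* went from 0.0352 to 0.902 FPKM. The level at 10-15 h is too near 0 for a fold of *Six4* to be given in either sex. Its small male difference depends on the 1 added to FPKM. With 0.1 added instead, the male difference was 2.87 for *Six4* and 4.33 for *eya*. The female median of all loci over this step was 0.66 and the male one 0.33.

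From 25-40 h to 55-70 h, both genes were lower in females, *Six4* by more than *eya*. The female mean of *eya* was 5.52-fold lower at 55-70 h and that of *Six4* 84.1-fold lower, differences of -2.34 and -4.25 on the log2 scale, the 155th and the 27th lowest of all loci. In males, *Six4* was 2.10-fold lower at 55-70 h, with a difference of -0.41, while the mean of *eya* was 1.43-fold higher, with a difference of 0.49. The male difference of *eya* was 0.14 without male replicate 1 of 25-40 h, and it was -0.14 after quantile normalization, so it has no stable direction.

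The ratio of the genes differed between the groups. Because FPKM is given per transcript length, the levels of the 2 genes can be set side by side within a library. No ratio is given at 10-15 h, where the bounds of *Six4* reach to or near 0. The ratio at 25-40 h was 2.81 and 1.46 for the female libraries, against 8.94 and 11.0 for the male ones. By 55-70 h it had reached 29.2 and 28.3 (female) and 42.1 and 21.4 (male). Of the 8 libraries of these ages, the coactivator and its homeobox partner were thus closest to each other in the 2 female libraries of 25-40 h.

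**Figure D2:**
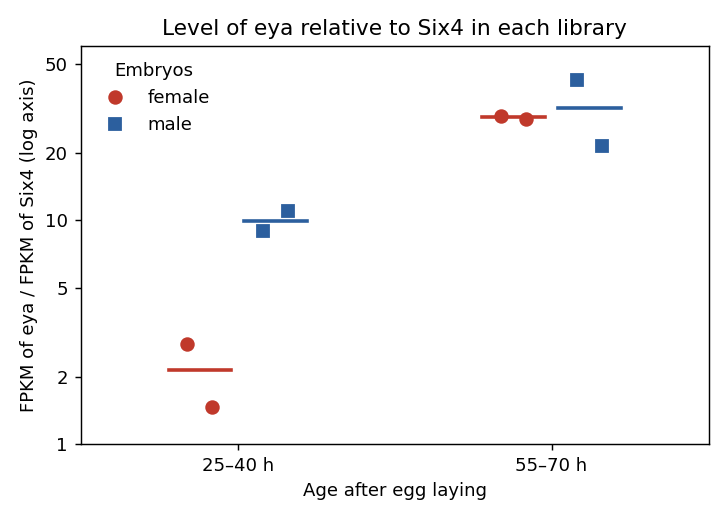
FPKM of *eya* divided by FPKM of *Six4* (log axis) in each library of 25-40 h and 55-70 h after egg laying, females as circles, males as squares, with a short line at the mean of each group of 2 libraries. The ratio is lowest in the 2 female libraries of 25-40 h (2.81 and 1.46) and highest at 55-70 h (21.4 to 42.1).

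Whether the 2 genes rise together was described over libraries and within groups. Over the 12 libraries, which fall into 3 ages and share the age pattern of many loci, Pearson's r of log2(FPKM + 1) was 0.766. Of 10104 other loci, *Six4* was the 2508th most like *eya*, and *eya* was the 133rd most like *Six4*. *Six4* exceeded 1.05 FPKM only in the 2 female libraries of 25-40 h. The r and the ranks include these values, which are among those the pair was chosen by, so they are a description only. Both genes were higher at 25-40 h than at 10-15 h in either sex, but at 55-70 h *eya* was still at 8.34 FPKM or more while *Six4* was at 0.483 FPKM or less. Within groups, replicate 1 and replicate 2 differed in the same direction for both genes in 4 of 6 groups. The direction is not read in either sex at 10-15 h or in females of 55-70 h, where the *Six4* replicates differed by 0.02 or less on the log2 scale. In the females of 25-40 h, replicate 1 was lower than replicate 2 by 0.17 (*eya*) and 1.07 (*Six4*) on the log2 scale, and in the males of 25-40 h by 0.70 and 0.23.

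An egg collection of up to 15 h allows libraries of one age to differ in stage, and the libraries of the sexes did not lie at the same position between the ages at 25-40 h. Each library was placed on the line from the mean of the 10-15 h libraries (0) to the mean of the 55-70 h libraries (1) over all tested loci except the pair. The females of 25-40 h were at 0.672 and 0.641 and the males at 0.466 and 0.537. The males therefore lay nearer to the early embryos than the females did. Of the males, the library at 0.537 had more *eya* (11.5 FPKM) and more *Six4* (1.05 FPKM) than the library at 0.466. Of the females the order was the reverse, since the library at 0.641 had more of both (50.9 and 34.8 FPKM). The part of this shift in the sex difference of *eya* and *Six4* was not tested, and with 2 libraries in each group and no overlap in position, sex and stage cannot be told apart at this age.

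**Figure D3:**
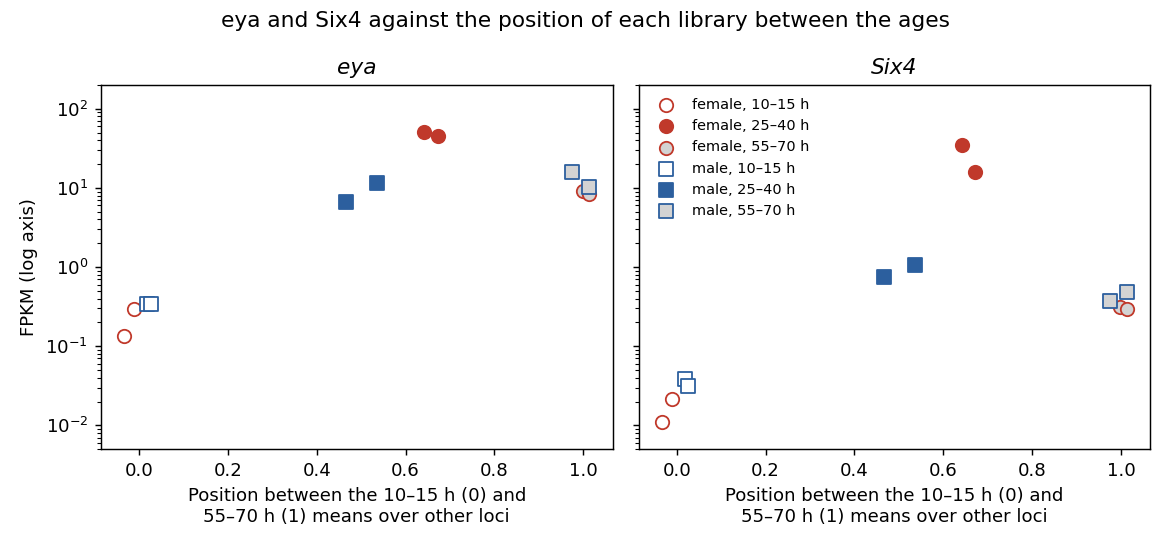
FPKM (log axis) of *eya* (left) and *Six4* (right) against the position of each library between the mean of the 10-15 h libraries (0) and the mean of the 55-70 h libraries (1) over the other tested loci, females as circles and males as squares, open at 10-15 h, filled at 25-40 h and grey at 55-70 h. The 25-40 h males lie at 0.466 and 0.537 and the 25-40 h females at 0.672 and 0.641, with no overlap.

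Loci near the pair were examined next. Within 20 kb of *eya* there were 13 loci, all tested, of which 0 were called higher and 2 lower in females of 25-40 h, against 7.96% and 6.68% of all loci, so that the count is near the background. LOC552743 lies wholly inside the *eya* span and had 1.36 and 2.15 FPKM in females and 1.17 and 0.874 FPKM in males of 25-40 h, a difference of 0.44 with a limma adjusted p of 0.356. LOC409517 overlaps *eya* by 1317 bases and differed by 0.17 between the sexes (limma adjusted p = 0.754). It fell by 1.89 from 10-15 h to 25-40 h (limma adjusted p = 7.12e-06), the step over which the level of *eya* was higher in both sexes. LOC408615, which ends 220 bases before *eya*, rose by 3.55 over that step (limma adjusted p = 1.41e-07), but had 123 and 80.7 FPKM in females against 102 and 128 FPKM in males of 25-40 h, a difference of -0.20 (limma adjusted p = 0.732). Whether reads were assigned by strand was not given in the sources used here, so reads of overlapping loci may be shared.

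Near *Six4*, 5 loci lay within 20 kb and none overlapped it. Of the 4 tested, 1 was called higher in females of 25-40 h, against 7.96% of all loci, a count too small to be read against the background. It is a locus without a gene name, from 15461155 to 15461360 on chromosome 1, which ends 229 bases from *Six4*. It had 3.74 and 9.25 FPKM in females and 0.913 and 2.03 FPKM in males of 25-40 h, 0.931 and 0 FPKM in males of 55-70 h, and was listed at 0 in the other libraries. The sex difference was 1.53 with a limma adjusted p of 0.0318. The locus reached the filter of a mean of 1 FPKM only through its female libraries of 25-40 h, the group in which it was called higher. The filter thus fixed part of this outcome, and nothing is read from the call. Its values exceeded their own upper bounds wherever they were above 0 (by 3.74 against 1.33 FPKM in female replicate 1), so the estimates are uncertain. A second unnamed locus, 506 bases from *Six4*, was above 0 only in the 2 female libraries of 25-40 h, at 0.266 and 2.80 FPKM. The neighbours LOC724761 and LOC724618 were not called at 25-40 h, with female minus male differences of 0.06 and -0.63 (limma adjusted p = 0.911 and 0.282).

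By the same correlation over 12 libraries, the genes most like *eya* were taken among loci with a gene name, leaving out those with a LOC number. They ranked 3rd to 38th of 10104 loci and were *18-w* (r = 0.985), *Paip2* (0.971), *PTP-ER* (0.970), *Dat* (0.967), *Psf2* (0.967) and *RpS30* (0.966). *18-w* encodes a Toll-family receptor in *Drosophila*. Its female means were 1.14, 23.5 and 7.90 FPKM over the 3 ages in order, and its male means were 0.659, 8.50 and 10.2 FPKM, which is the order of groups found for *eya* at 25-40 h and 55-70 h. Those most like *Six4*, which ranked 9th to 67th, were *Hiscl1* (r = 0.933), *GMCOX14* (0.928), *Lys-1* (0.878), *Syt4* (0.866), *Tdc1* (0.839) and *RabX6* (0.824). *Hiscl1* encodes a histamine-gated chloride channel and had a mean of 5.31 FPKM in females and 1.47 FPKM in males of 25-40 h, and of 0.0765 to 0.219 FPKM in the other 4 groups. *Hiscl1* and *Tdc1* reached the filter of a mean of 1 FPKM only through the females of 25-40 h, the top group of *Six4*. The filter thus fixed part of their likeness to *Six4*. No gene is on both of these lists.

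Genes that act with or around Eya and its homeodomain partners in *Drosophila* were taken from 4 lists. These were of retinal determination, of regulators of mesoderm and muscle, of muscle structure, and of cofactors, targets and inputs. The last list is of Eya and proteins of the sine oculis family, not of Six4 in particular. Of 68 genes listed, 30 were matched by name to 33 loci, and 32 of these were tested. At 25-40 h, 6 of the 32 loci were higher in females and 3 lower, against 7.96% and 6.68% of all loci, with a median difference of 0.17 against -0.03. The females of this age lay at a later position between the ages than the males. Sex and stage therefore cannot be told apart for the listed loci either. At 10-15 h, 0 were higher and 2 lower by limma, against 1.84% and 7.23% of all loci, which is near the background. At 55-70 h, 0 were called in either direction, against 0.327% and 0.317%. Without the multiple-testing correction, limma gave p under 0.05 for 2 higher and 4 lower at 10-15 h, and for 4 and 4 at 55-70 h. No share of all loci at an unadjusted p is given for this fit, so these counts cannot be read against a background. The 2 lower at 10-15 h were *gro* (357 and 253 FPKM in females, 586 and 620 FPKM in males, limma adjusted p = 0.0325) and *TpnCIIa* (a difference of -1.14, limma adjusted p = 0.0462), and neither was called without female replicate 2 or either male library of 10-15 h. At 55-70 h, 4 loci were called higher without male replicate 2 and 1 lower without female replicate 2 of that age. At 25-40 h, 3 were called higher without female replicate 2 or without male replicate 1, and 1 lower without male replicate 1. When only the 4 libraries of 25-40 h were fitted, limma called 0 loci. At an unadjusted p under 0.05 this fit gave 6 listed loci higher and 3 lower, against 1237 higher and 998 lower of all 10105 loci.

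Among the cofactors, targets and inputs, 3 of 8 loci were higher and 1 lower in females of 25-40 h, against 7.96% and 6.68% of all loci. Each of the 4 lists alone, with 5 to 10 loci tested, is too small to be read against these shares. *pnt*, an ETS transcription factor of the receptor tyrosine kinase pathway, had 14.8 and 20.3 FPKM in females and 2.22 and 2.79 FPKM in males, without overlap. Its difference was 2.40 (standard error 0.26, limma adjusted p = 0.00037), close in size to that of *eya*. *ems*, a homeobox gene of the head, had 16.2 and 25.2 FPKM against 4.41 and 9.91 FPKM (difference 1.47, limma adjusted p = 0.0152). The receptor *N* is split into a pair of loci, of which one was higher in females by 1.50 (limma adjusted p = 0.00447) and the other had a difference of 0.94 (limma adjusted p = 0.127). *gro*, a corepressor that acts with homeodomain proteins of this family, was lower in females, at 194 and 152 FPKM against 322 and 278 FPKM, a difference of -0.80 (limma adjusted p = 0.0488). Leaving out 1 library ended the call of *gro* in 7 of 12 fits, with a limma adjusted p of up to 0.250, and so did 5 of 12 processing alternatives (0.0547 to 0.139). The call of *ems* was lost without female replicate 2 (0.118) or male replicate 1 (0.127) of 25-40 h. *Ecr*, the ecdysone receptor, and the ligand *dpp* did not pass, with differences of -0.26 and 0.12, nor did the joined locus of *CycE* and *tacc* (-0.25).

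Among the regulators of mesoderm and muscle, 1 of 10 loci was higher and 1 lower in females of 25-40 h, against 7.96% and 6.68% of all loci. *pnr*, a GATA factor of the dorsal ectoderm and the heart, had 8.69 and 12.1 FPKM against 3.82 and 3.59 FPKM (difference 1.26, limma adjusted p = 0.00996). This call was lost without female replicate 2 (limma adjusted p = 0.0747), male replicate 1 (0.0624) or male replicate 2 (0.0529) of 25-40 h. At 10-15 h the means of *pnr* were 9.38 FPKM in females and 4.49 FPKM in males, and at 55-70 h 15.5 and 16.1 FPKM. It was not called between the sexes at either of these ages. *tj*, a Maf factor of the somatic gonad in *Drosophila*, was lower in females of 25-40 h, at 0.717 and 0.410 FPKM against 4.55 and 3.13 FPKM (difference -1.62, limma adjusted p = 0.00315). The next values are again of 25-40 h. The mesoderm regulators *Twi* and *Snail* were abundant at this age but did not pass between the sexes. *Twi* had 322 and 174 FPKM in females and 261 and 281 FPKM in males, and *Snail* 46.6 and 47.0 FPKM against 27.4 and 42.4 FPKM. *nau*, the MyoD-type factor, had 3.69 and 2.51 FPKM against 1.66 and 2.26 FPKM, a difference of 0.46 (limma adjusted p = 0.271). The other 5 loci, *htl*, *how*, *ap* and a pair of *Mef2* loci, differed by -0.56 to 0.56 and did not pass.

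Of the retinal determination genes, 0 of 5 loci were higher and 1 was lower in females of 25-40 h by limma, against 7.96% and 6.68% of all loci. *oc*, a homeobox gene of the head and the ocelli, had 72.6 and 28.8 FPKM against 165 and 136 FPKM in males, a difference of -1.69 (limma adjusted p = 0.0106) that did not pass without male replicate 1 of 25-40 h (limma adjusted p = 0.0906). *hbn*, another head homeobox gene, had 161 and 62.3 FPKM against 193 and 174 FPKM, which did not pass (difference -0.87, limma adjusted p = 0.149). *Eyg*, a Pax gene of the eye, was at 0.0885 FPKM or less in all 25-40 h libraries, and a pair of *exd* loci differed by -0.17 and -0.08. Other members of the eye network, Sine oculis among them, were not matched by name and are not analysed here.

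Muscle structure genes were 2 of 9 higher and 0 lower in females of 25-40 h by limma, against 7.96% and 6.68% of all loci. *Mf*, a protein of the myofibril, had 5.61 and 5.34 FPKM against 0.589 and 1.28 FPKM (difference 1.77, limma adjusted p = 0.00173). A locus that joins LOC552295 with the troponin gene *TpnCI* had 55.3 and 82.2 FPKM against 16.2 and 19.0 FPKM (difference 1.89, limma adjusted p = 0.00564), and the share of each gene in it is uncertain. This call was lost without female replicate 2 (limma adjusted p = 0.0533) or male replicate 1 (0.0568) of 25-40 h. *TpnI* and *TpnT*, which encode troponin subunits, were at 0.484 FPKM or less in every library of that age, and the 7 loci that did not pass differed by -0.06 to 0.47.

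**Figure D4:**
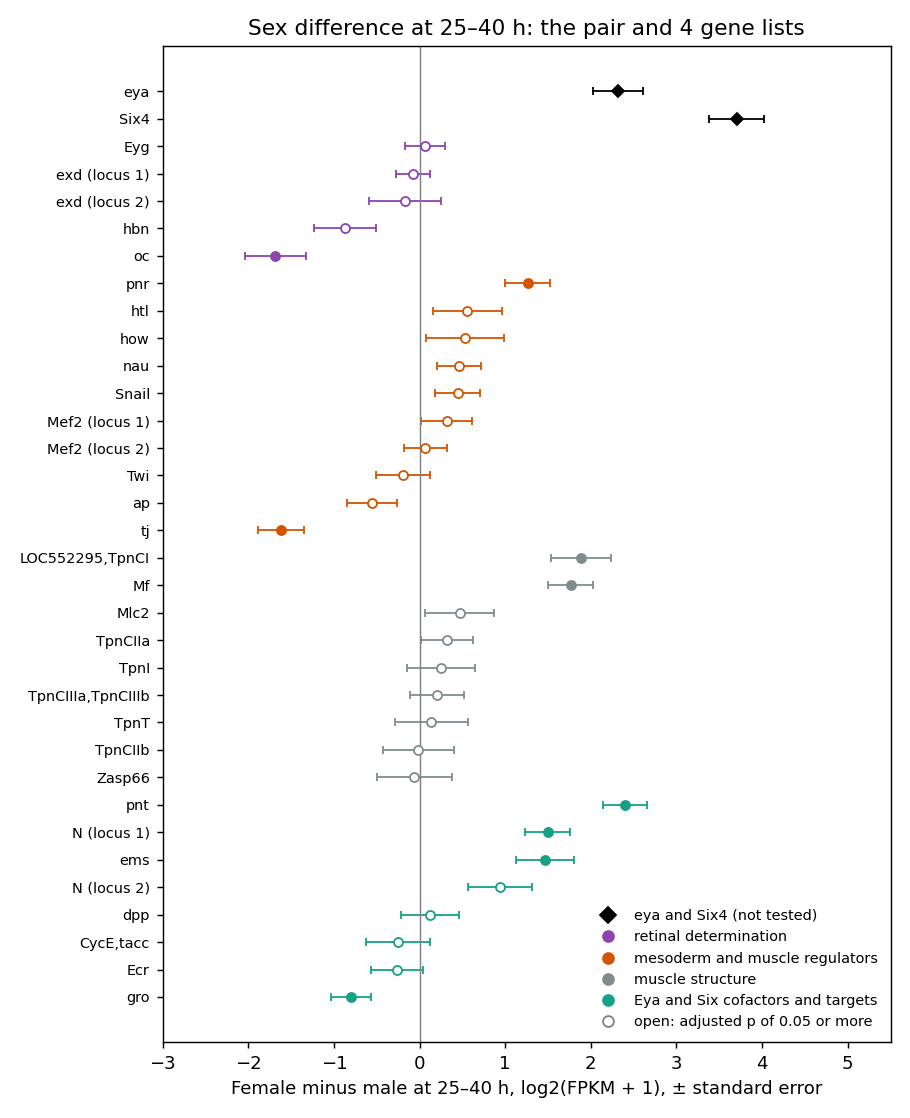
Female minus male difference at 25-40 h in log2(FPKM + 1) (horizontal axis) with its standard error from limma, for *eya* and *Six4* (diamonds, not tested) and for the 32 tested loci of 4 gene lists (circles, filled where the adjusted p is under 0.05). *Six4* (3.71) lies to the right of all listed loci, and *pnt* (2.40) and *eya* (2.32) lie side by side.

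Over age, the listed genes followed several courses. Of the 32 loci, 14 rose and 6 fell from 10-15 h to 25-40 h, averaged over the sexes, against 47.6% and 23.6% of all loci. The median was 0.28 against 0.50 for all loci. From 25-40 h to 55-70 h, 19 rose and 8 fell, against 36.4% and 19% of all loci, with a median of 0.95 against 0.23. Scaling the libraries moved the median of all loci to between -0.03 and 0.24 in the first step and to between -0.19 and 0.00 in the second, and 0 of the listed loci called turned direction under it. Up to 4 of the 20 calls of the first step and 3 of the 27 of the second were lost, and in the first step 10 loci were called higher and 9 lower after median-ratio scaling, and 11 and 10 after quantile normalization. *Twi*, *Snail* and *hbn* had their highest level at 25-40 h, as the pair in females did. *Twi* rose by 7.62 and then fell by 2.46, *Snail* rose by 4.66 and fell by 1.10, and *hbn* rose by 6.89 and fell by 5.98. *ap*, a LIM homeobox gene of muscle founder cells, rose by 3.49 and was then level, with a second difference of -0.01 that did not pass.

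Other listed genes were highest at 55-70 h. *nau* rose by 1.76 and then by 3.81, *Mlc2* (myosin light chain) by 4.15 and then by 4.74, and *Eyg* passed only in the second step, with a rise of 2.75. *TpnI* rose by 8.63 and *TpnT* by 8.11 in that step. At 55-70 h, *TpnI* was at 262 to 756 FPKM in the 4 libraries. *Six4*, at 0.295 to 0.483 FPKM in the same libraries, was low when these genes of muscle structure were high, while *eya* was still at 8.34 to 15.9 FPKM. *oc* and *tj* fell in both steps, with differences of -1.43 and -3.43 for *oc* and of -3.08 and -1.01 for *tj*.

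The change from one age to the next was compared between the sexes for the listed genes by limma. From 10-15 h to 25-40 h, the female change exceeded the male change in 4 loci (*pnt*, the locus of LOC552295 and *TpnCI*, *Mf* and *N*) and fell short of it in 2 (*oc* and *tj*), against 4.21% and 3.29% of all loci. From 25-40 h to 55-70 h, it exceeded the male change in 1 (*tj*) and fell short of it in 2 (*pnt* and *N*), against 2.95% and 5.54% of all loci. Both steps include the libraries of 25-40 h, in which sex and stage cannot be told apart, and these counts rest on few libraries. In the first step they were 1 higher and 0 lower without male replicate 1 of 25-40 h or either male library of 10-15 h, 1 and 1 without female replicate 2 of 10-15 h, and 2 and 2 without female replicate 2 of 25-40 h. No shares of all loci are given for those fits, so their counts cannot be read against a background. In the second step limma called 0 of the listed loci with only the libraries compared. At an unadjusted p under 0.05 that fit gave 3 listed loci higher and 8 lower, against 759 and 1449 of all 10105 loci. *pnt* had 76.3 and 52.9 FPKM in females and 40.2 and 40.7 FPKM in males of 55-70 h, above its values at 25-40 h in both sexes, whereas *Six4* was lower at 55-70 h in both.

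Markers of tissues that the embryos hold were summed per library. At 25-40 h, the muscle markers matched (3 of 5) summed to 38.1 to 40.0 FPKM in females and 25.2 to 30.5 FPKM in males, but only 1 of these loci, *Mlc2*, reached 1 FPKM. The photoreceptor markers (5 of 7) summed to 25.2 to 31.6 and 19.8 to 25.9 FPKM, which overlap. The germ line markers (3 of 4) were lower in females, at 58.9 to 93.0 against 122 to 128 FPKM, as were those of cuticle (4 of 4, with 16 loci), at 35.9 to 37.6 against 52.4 to 62.2 FPKM, and of fat body (5 of 5), at 31.3 to 33.2 against 40.0 to 55.3 FPKM. Neuron markers (2 of 5) overlapped, at 12.6 to 15.3 and 10.7 to 16.2 FPKM, and haemocyte markers (2 of 3) were at 3.77 to 5.98 and 6.73 to 7.47 FPKM. No marker was at 0 in both libraries of either sex at this age. The germ line markers were lower in females at 10-15 h too, at 184 to 186 against 595 to 628 FPKM. The same held at 55-70 h, at 40.4 to 52.0 against 64.3 to 79.4 FPKM. Cuticle and fat body markers were higher in females at 10-15 h, at 129 to 130 against 106 to 118 and 88.6 to 131 against 81.6 to 87.9 FPKM. At 55-70 h, the male libraries stood apart from each other, at 849 and 2511 FPKM for muscle and 235 and 1484 FPKM for cuticle, while the female libraries were at 2107 to 2200 and 2637 to 3779 FPKM. The part of these shifts in the levels of *eya* and *Six4* was not tested. The summed FPKM of a library ran from 426254 to 727448, and 7392 to 11048 loci were at 1 FPKM or above; read depth is unknown, as FPKM does not keep it.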

How the data were processed

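Messenger RNA of pooled whole embryos was sequenced in 12 libraries. The authors mapped reads with TopHat2 and Bowtie2 2.2.6 and estimated FPKM with Cufflinks 2.2.1, per the labels and the submitters' processing notes. The genome build, annotation and strand setting were not given in the sources used here. The deposited values used were FPKM of each locus with its lower and upper bounds in FPKM, one file for each library. FPKM are not counts, so read depth is unknown and no count test was run.

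Values were read by locus and gene name in Python 3.11.15 (numpy 2.4.6, pandas 2.3.3). Differences were fitted on log2(FPKM + 1) with limma 3.58.1 in R 4.3.3, with means for 6 groups, a variance trend and Benjamini-Hochberg adjustment over 10105 loci. These had a valid status in all 12 libraries and averaged 1 FPKM or more. The prior had 4.42 degrees of freedom beside 6 residual ones, and the threshold was an adjusted p of 0.05. The fit was tried on simulated loci with normal scatter around the overall mean of each locus, with a known shift added to some. Unlike these data, they had no age pattern and no floor at 0, so nothing about the calls is read from them.

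Members, gene lists and tests were chosen with earlier results of these data known. For *eya* and *Six4*, only differences and standard errors are given. From each list, up to 6 loci called in any comparison were named, by size of difference. *pnr*, *Mf* and *TpnCIIa* fell outside that rule and were named after their values were seen, as few loci were called. The spelled-out symbols *Snail*, *TpnT* and *TpnI* were matched to their lists after the symbols in the files were seen. For each gene of the pair, the 6 named loci of highest Pearson's r over the 12 libraries and all loci within 20 kb were taken. Alternatives were another pseudocount (0.1 or 5), another filter (a mean of 5 FPKM or none), 3 scalings, loci of any status, the midpoint of the bounds, only the libraries compared, a replicate block, no variance trend, and leaving out each library in turn. Figures were drawn with matplotlib 3.10.9.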

Additional observations from a re-analysis of the deposited data

Results flagged for a closer look

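For listed genes, the change with age differed between the sexes by the interaction term of the limma fit. From 10-15 h to 25-40 h, the female minus male difference of the change in log2(FPKM + 1) was 2.31 for *pnt* (adjusted p = 0.00566), 2.16 for the joined locus of LOC552295 and *TpnCI* (adjusted p = 0.0258), 1.83 for *Mf* (adjusted p = 0.0163) and 1.46 for the called locus of *N* (adjusted p = 0.0413). Over the same step it was -2.09 for *oc* (adjusted p = 0.0339) and -1.96 for *tj* (adjusted p = 0.0136). From 25-40 h to 55-70 h, it was -1.75 for *pnt* (adjusted p = 0.0168), -1.72 for the same locus of *N* (adjusted p = 0.0210) and 1.44 for *tj* (adjusted p = 0.0430). These calls rest on few libraries. Without male replicate 1 of 25-40 h, limma called 1 of the listed loci in the first step and 0 in the second (8 lower and 2 higher there at an unadjusted p under 0.05). The count of 1 locus higher in the second step was 0 with a pseudocount of 0.1 or 5, with a mean of at least 5 FPKM, without a filter, and in 9 of 12 fits that left out 1 library. After median-ratio scaling 3 were higher and 0 lower in that step, and after quantile normalization 2 and 0. No shares of all loci are given for these other fits, so their counts cannot be read against a background. Both differences of *pnt*, *N* and *tj* share the 4 libraries of 25-40 h. All differences in this section include those libraries, in which sex and stage cannot be told apart. With 2 libraries in a group, no single library could be tested against its group.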

How the results depend on the processing

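The sex difference at 25-40 h and the female age differences of *eya* and *Six4* kept their direction under every alternative that gave a value. A mean of at least 5 FPKM leaves *Six4* out, so it gives none there. With a pseudocount of 0.1, *eya* differed by -0.54 between the sexes at 10-15 h, by 7.30 in females and 4.33 in males over the first step, and *Six4* by 4.58 between the sexes at 25-40 h, by 7.68 and 2.87 over the first step and by -5.88 in females and -0.91 in males over the second. With a pseudocount of 5, *eya* differed by 1.93 between the sexes at 25-40 h, by 3.35 and 1.38 over the first step and by -1.95 in females over the second, and *Six4* by 2.30, 2.53, 0.23 and -2.45. After quantile normalization, *eya* differed by 4.48 and 2.10 over the first step and by -2.88 in females and -0.14 in males over the second, and *Six4* by 3.99 and 0.36 over the first step. The male second step of *eya* was 0.12 after median-ratio scaling and 0.17 at equal sums. The rank of *Six4* by likeness to *eya* was 966 after quantile normalization, 1004 with a pseudocount of 5 and 1441 after median-ratio scaling, and that of *eya* by likeness to *Six4* was 80 with a pseudocount of 5 and 378 without a filter. Of the 4 lists, 1 locus was called higher in females at 10-15 h with a pseudocount of 0.1, a mean of at least 5 FPKM, quantile normalization, equal sums or the midpoint of the bounds, and 2 after median-ratio scaling. At that age 4 were called lower with a pseudocount of 0.1 or equal sums, 1 with a pseudocount of 5, quantile normalization, loci of any status, the replicate block or no variance trend, and 0 without a filter or with only the libraries compared. At 25-40 h, limma called 0 higher and 0 lower with only the libraries compared, the setting with the fewest libraries. After quantile normalization 10 fell over the first step, against 3594 of all loci. Correlations of replicate differences between groups ran from -0.28 to 0.17, with 3 of 15 over 0.1. They cannot show whether libraries of the same replicate number shared a batch or mothers. With the replicate block 6 of the listed loci were higher and 3 lower at 25-40 h, as without it.

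Leaving out each library in turn, the sex difference at 25-40 h ranged from 1.97 to 2.66 for *eya* and from 3.17 to 4.24 for *Six4*, and that of *eya* at 55-70 h from -0.80 to -0.23. The first step ranged from 2.53 to 3.22 for *eya* in males and from 4.07 to 5.14 for *Six4* in females, and the second from 0.14 to 0.84 and from -4.78 to -3.71. The rank of *eya* by likeness to *Six4* ranged from 110 to 258. Of the listed loci, 0 to 1 were called higher and 0 to 3 lower at 10-15 h, 3 to 6 and 1 to 4 at 25-40 h, and 0 to 4 and 0 to 1 at 55-70 h. Over all loci, the 804 called higher and 675 called lower at 25-40 h became 276 to 882 and 248 to 1261, and with only the 4 libraries compared limma called 0 in either direction, with 1237 higher and 998 lower at an unadjusted p under 0.05. At 10-15 h the 186 higher ranged from 0 to 270 and the 731 lower from 1 to 1194, and at 55-70 h the 33 higher and 32 lower ranged from 6 to 229 and from 2 to 173. FPKM hold no read depth, so no limit of detection is given.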
